A study of Mus musculus with 16 samples.

Results

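The circadian clock of the liver is built around CLOCK and BMAL1 (the product of Arntl), which together activate genes that carry an E-box, among them the Per and Cry genes. The PER and CRY proteins then repress CLOCK and BMAL1, which closes a feedback loop of about a day. TEF and HLF, clock-driven factors of the PAR bZIP family, bind a second element, the D-box, and pass the rhythm on to genes of metabolism. In mouse liver, transcripts of Clock and Arntl are known to peak at a different phase of the day from those of Per3, Tef and Usp2. Usp2 encodes a rhythmic deubiquitinase, and Tsc22d3 encodes GILZ, a protein induced by glucocorticoids.

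The transcripts described here are the listed ones whose interval overlaps, or lies within 5 kb of, the gene body of Clock, Arntl, Per3, Cry2, Tef, Hlf, Usp2 or Tsc22d3 (GENCODE M21, GRCm38). They number 31 of 51024 listed transcripts, 28 with NONCODE IDs and 3 with Ensembl IDs, and 25 of them overlap the gene body. The files list long non-coding transcripts, and each value below belongs to such a listed feature. With strand handling not given in the sources used here, reads of a feature and of the coding gene that overlaps it cannot be told apart. A gene symbol beside a feature therefore gives its position.

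Livers of 16 C57BL/6J mice, labelled as postnatal day 21, were sequenced in 4 groups of 4. These were high-fat feed with resveratrol (100 mg/kg per day by gavage), high-fat feed with metformin (200 mg/kg per day by gavage), high-fat feed alone, and ordinary feed. Metformin is a drug for diabetes, and resveratrol is a polyphenol found in grapes. Both drug groups also received the high-fat feed, and the labels describe no gavage for the groups without a drug. No hour of collection, sex, cage or batch is given. One title prefix is common to all high-fat samples, ordinary-feed library 4 and resveratrol library 4 each carry a prefix that no other library of their group has, and what the prefixes mean is not stated. A difference between prefixes and a difference between diets cannot be told apart for the high-fat group.

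The libraries held 17.2 to 31.1 M reads, and 1 read on a transcript of 1 kb was worth 0.0321 to 0.0580 FPKM, a level scaled to transcript length and library total. High-fat library 4 stood apart. Its median ratio to the geometric mean of the libraries was 0.691, against 0.885 to 1.145 in the other 15. Features over hepatocyte markers summed to 86.4 to 123 FPKM with resveratrol, 78.6 to 119 with metformin, 69.1 to 98.0 on high fat and 53.3 to 86.7 on ordinary feed (13 features of 5 of 8 marker genes). Summed levels over markers of other cells were at most 4.90 FPKM in any library (stellate, 15 features), 1.93 (endothelial, 11), 1.89 (lymphocyte, 4), 1.43 (cholangiocyte, 2) and 0.221 (macrophage, 1), and no feature lay at the adipocyte markers. Ranges of these sums overlapped between high fat and ordinary feed for every list with a feature. Of the 7 hepatocyte features that were tested, 2 were called higher and 1 lower on high fat by limma, and the groups did not overlap in 3, beside 14.6% called and 20.9% without overlap over all features. Their part in the results was not tested. In such bulk tissue, fewer cells of a type and less RNA per cell cannot be told apart.

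To show the elements the clock acts through, 300-base RefSeq promoter windows of the 8 genes (14 windows, GRCm38.p6, 250 bases before to 50 after a start) were searched on both strands for the letters of 4 motifs that do not overlap here. The E-box CACGTG was found in both windows of Tef, the D-box TTANGTAA in 2 places of 1 Per3 window, and TAGGTCA, the element of the ROR and REV-ERB receptors (RORE), in a window of Arntl. The palindromic glucocorticoid response element was in 0 of the 14. Among all 32851 windows, 7.15% hold the E-box, 2.32% the D-box, 2.61% the RORE and 0.00913% the glucocorticoid element. The 30-base stretches around the matches are given with the motif in capitals. A match is a description of the letters and shows no binding.
Per3 D-box at position -158, chr4:151044805-151044834, minus strand: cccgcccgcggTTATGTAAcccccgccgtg
Per3 D-box at position -205, chr4:151044852-151044881, minus strand: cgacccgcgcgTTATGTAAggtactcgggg
Tef E-box at position -127, chr15:81802534-81802563, plus strand: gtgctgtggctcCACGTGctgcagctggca
Tef E-box at position -138 of its other start, chr15:81811264-81811293, plus strand: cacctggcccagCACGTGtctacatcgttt
Arntl RORE at position 31, chr7:113207530-113207559, plus strand: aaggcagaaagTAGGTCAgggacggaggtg

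Of the 31 transcripts, 14 reached 1 FPKM in at least 4 libraries and were tested, and all 14 overlap a gene body. They are 3 at Clock, 1 at Arntl, 2 at Per3, 1 at Cry2, 3 at Tef, 2 at Hlf, 1 at Usp2 and 1 at Tsc22d3. By place, 6 were intronic, 3 lay in a 3′ UTR, 3 were partly exonic and 2 were multi-part transcripts with inner exon borders that the files lack. Which of them passed the filter depended on their level, so the counts below cover the tested 14 and not all 31. Arntl NONMMUT063286.2 and Clock NONMMUT052837.2 passed it with no high-fat library at 1 FPKM.

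**Figure D1:**
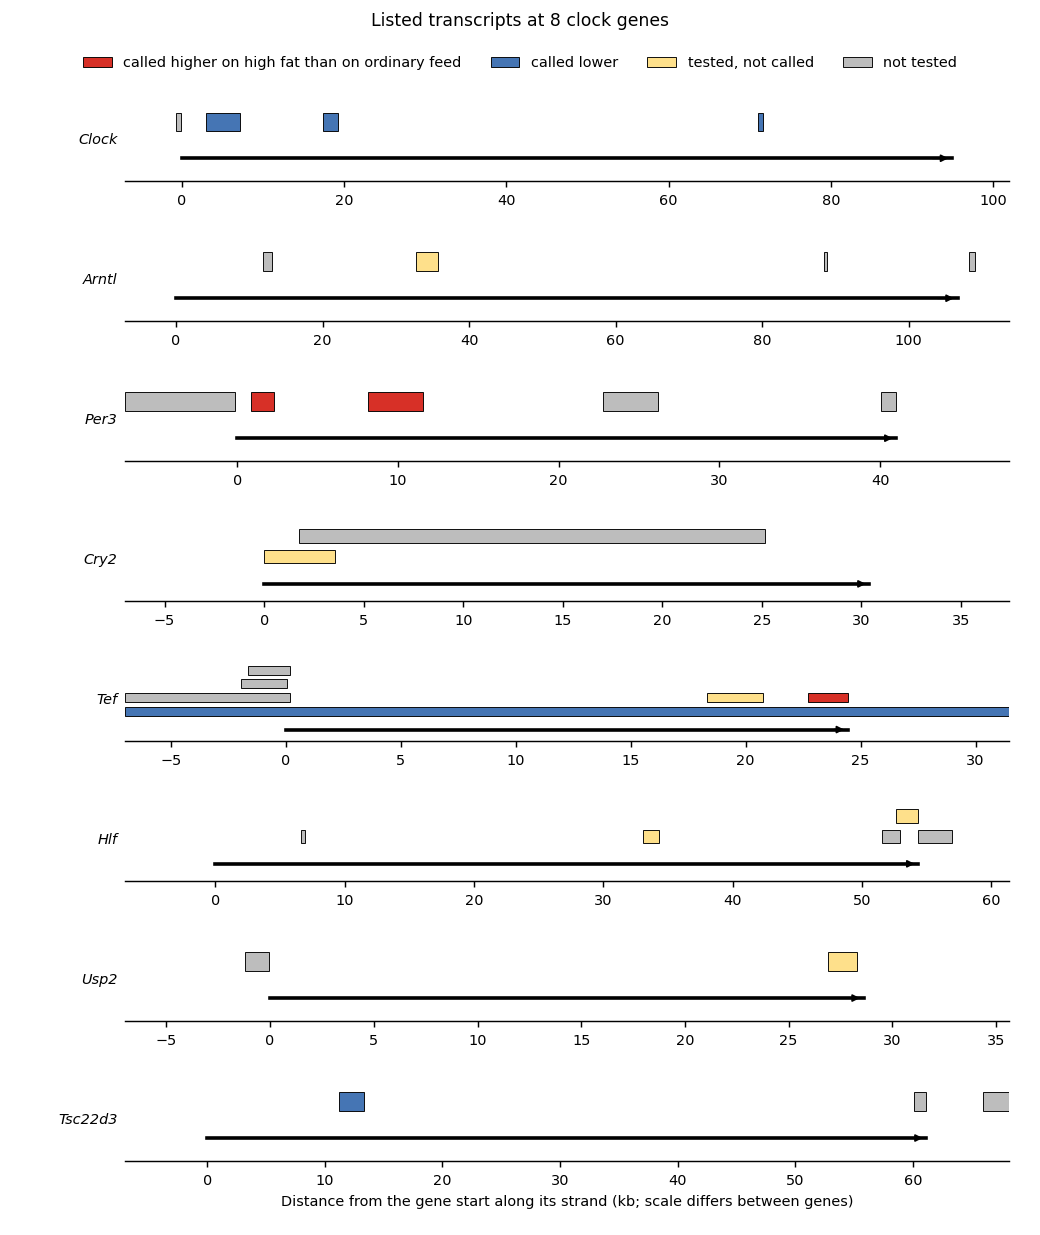
Listed transcripts (boxes) along the 8 gene bodies (arrows, in the direction of transcription), as distance in kb from the gene start, with a scale per gene. Boxes are coloured by the result for high fat against ordinary feed, called at a limma adjusted p under 0.05, and boxes that run past the drawn range, such as the Tef one of 458.6 kb, are clipped.

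High fat against ordinary feed asks what differed between the diets. With no hour of collection given, a difference in hour between the groups and a difference of diet cannot be told apart. The same holds for every comparison below. Features at Clock were lower on high fat, those at Per3 and in the 3′ UTR of Tef were higher, and the one in Tsc22d3 was lower. Of the 14 features, 8 were called at a limma adjusted p under 0.05, 3 higher and 5 lower, where 14.6% of all 7413 features tested were called (2.83% higher, 11.8% lower). At an unadjusted p under 0.05 there were 12 of 14, against 32.2% of all features, and the groups did not overlap in 6 of 14, against 20.9%. The 8 called features lie at Clock, Per3, Tef and Tsc22d3 only, and features of the same gene are not independent. The genes were chosen with earlier results of these data known, so these shares are a description and no test of enrichment. The median log2 change of the 14 was -0.40, beside -0.16 over all features. Scaling the libraries by their median ratio moved the median of all features to 0.00 and gave 5 members higher and 2 lower, where 447 of all features were higher and 366 lower (11.0% called). Quantile normalization gave 5 and 2 as well, where 338 of all features were higher and 383 lower (9.73% called). All 14 kept the sign of their change under both scalings. A fit of these 2 groups alone called 3 of the 14, beside 6.06% of all features. With no filter, where p-values are adjusted over 49988 features, none of the 14 was called, beside 0.548% of all features. Log2 changes are on the log2(FPKM + 1) scale throughout, which understates changes of low features. P-values measure only the spread between these libraries.

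At Clock, whose protein is an activator of the loop, all 3 tested features are intronic and all 3 fell. The one nearest the gene's end (NONMMUT052836.2, chromosome 5, 76233119 to 76233778, 660 bases) stood at 1.54, 1.85, 1.72 and 1.17 FPKM in the high-fat libraries, against 3.07, 4.72, 3.68 and 2.86 FPKM in the ordinary-feed libraries. Every high-fat value lay below every ordinary-feed value. The means were 1.57 ± 0.295 FPKM on high fat and 3.58 ± 0.835 FPKM on ordinary feed (SD, n = 4 each; log2 change -0.82, SE 0.18, limma adjusted p = 0.0116). This call held without any 1 library.

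Gm43658 (ENSMUSG00000106815.1, chromosome 5, 76297600 to 76301775), which lies in an intron near the start of Clock, had 0.528, 1.17, 0.828 and 0.469 FPKM in high-fat livers, against 2.08, 2.01, 1.85 and 1.19 FPKM in ordinary-feed livers. The groups did not overlap, although high-fat library 2 and ordinary-feed library 4 nearly met. It fell by 0.67 on the log2 scale (-0.67, SE 0.15, limma adjusted p = 0.0133), also without any 1 library. Between these features lies NONMMUT052837.2 (76285569 to 76287367), with 0.589, 0.750, 0.778 and 0.203 FPKM on high fat and 1.51, 1.47, 1.14 and 0.856 FPKM on ordinary feed. Again no value overlapped (log2 change -0.51, SE 0.15, limma adjusted p = 0.0379). NONMMUT052837.2 reached 1 FPKM in 7 libraries, none of them high-fat, so it entered the test through groups where it was higher. Its call and its lack of overlap are limited by this. The call was lost under both scalings (log2 change -0.41, adjusted p = 0.0685 and -0.39, 0.0571) and when any of ordinary-feed libraries 1 to 3 or high-fat library 1 or 4 was left out (adjusted p 0.0520 to 0.10).

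Arntl encodes BMAL1, the partner of CLOCK. Its tested intronic feature (NONMMUT063286.2, chromosome 7, 113240250 to 113243216) had 0.208, 0.617, 0.398 and 0.0307 FPKM on high fat and 1.95, 1.09, 1.35 and 0.435 FPKM on ordinary feed. Ordinary-feed libraries 1 to 3 were above all high-fat libraries, and library 4 was within their range. The change of -0.72 (SE 0.26) was not called (limma adjusted p = 0.0692), but was without ordinary-feed library 4 (-0.91, adjusted p = 0.0341). This feature reached 1 FPKM in 4 libraries only, ordinary-feed libraries 1 to 3 and resveratrol library 3, and in no high-fat library. It thus entered the test through libraries where it was high, which limits this comparison. A further 2 transcripts inside Arntl missed the filter and are described by their range. NONMMUT063285.2 had 0.160 to 0.367 FPKM on high fat and 0.480 to 1.27 on ordinary feed, and NONMMUT063288.2 had 0.101 to 0.517 FPKM on high fat and 0.571 to 1.34 on ordinary feed. In both, every high-fat value was below every ordinary-feed value, on 1 to 25 reads a library. The share of features without overlap is not given here for features that missed the filter. With no filter neither was called (limma adjusted p = 0.214 and 0.126). The other untested transcript linked to Arntl, NONMMUT063289.2, lies downstream of the gene in the interval of Btbd10. Its groups overlapped, with 0.113 to 0.879 FPKM on high fat and 0.0486 to 1.24 on ordinary feed (log2 change 0.08 with no filter, limma adjusted p = 0.972).

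Both tested features of Per3, a period gene of the repressing arm, were higher on high fat. The larger (NONMMUT050749.2, chromosome 4, 151033076 to 151036561, partly exonic) had 3.81, 1.57, 2.79 and 2.07 FPKM in high-fat livers, against 0.266, 0.268, 0.355 and 1.61 FPKM in ordinary-feed livers. Ordinary-feed libraries 1 to 3 were far below every high-fat library, and library 4 lay just above the lowest of them. It averaged 2.56 ± 0.973 FPKM on high fat and 0.625 ± 0.658 FPKM on ordinary feed (SD, n = 4 each; log2 change 1.16, SE 0.28, limma adjusted p = 0.0169), a call lost without ordinary-feed library 2 (adjusted p = 0.0512).

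Nearer the gene start, NONMMUT050750.2 (151042409 to 151043788, partly exonic) had 2.08, 1.33, 1.71 and 1.59 FPKM on high fat and 0.252, 0.311, 0.104 and 1.80 FPKM on ordinary feed. The same ordinary-feed library, number 4, stood with the high-fat libraries. The rise of 0.83 (SE 0.26, limma adjusted p = 0.0472) lost its call when any library but ordinary-feed library 4 was left out (adjusted p 0.0643 to 0.124). Both features also lie in the interval of Camta1, a coding gene that overlaps Per3, and reads of either gene cannot be told apart. The Per3 3′ UTR transcript NONMMUT050747.2 missed the filter, with 0.0946 to 0.504 FPKM on high fat and 0.0602 to 0.890 on ordinary feed.

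Cry2, a cryptochrome and partner of the PER proteins, had 1 tested feature (NONMMUT038546.2, chromosome 2, 92430483 to 92434072, partly exonic). It had 1.24, 1.33, 1.41 and 1.52 FPKM on high fat and 0.904, 0.945, 0.889 and 1.01 FPKM on ordinary feed. The groups did not overlap, yet the change of 0.29 (SE 0.11) was not called (limma adjusted p = 0.0933). It was called under median-ratio scaling (0.45, adjusted p = 0.0397) and quantile normalization (0.43, 0.0496).

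Tef held features that differed in direction. In the 3′ UTR, NONMMUT024336.2 (chromosome 15, 81825122 to 81826859) had 3.45, 2.29, 2.34 and 3.33 FPKM on high fat and 0.734, 1.19, 1.18 and 2.17 FPKM on ordinary feed. All high-fat values were above all ordinary-feed values (log2 change 0.75, SE 0.19, limma adjusted p = 0.0209). The call was lost when any of ordinary-feed libraries 1 to 3 or high-fat library 4 was left out (adjusted p 0.0510 to 0.0553). The multi-part NONMMUT024335.2 (81820753 to 81823165), a few kb upstream of it in the gene, had 4.09, 2.28, 2.75 and 3.69 FPKM on high fat and 0.804, 1.85, 1.15 and 2.83 FPKM on ordinary feed. Library 4 of ordinary feed was the highest of its group here too. The change of 0.70 (SE 0.23) was not called (limma adjusted p = 0.0576), but was under both scalings and without that library (0.89, adjusted p = 0.0246).

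The remaining Tef feature, NONMMUT024316.2, is a multi-part transcript of 1371 bases whose interval of 458.6 kb (81434316 to 81892944) also overlaps 11 other coding genes. It had 1.22, 1.10, 1.69 and 1.70 FPKM on high fat and 1.73, 3.13, 2.15 and 2.17 FPKM on ordinary feed, with no overlap. It fell (log2 change -0.43, SE 0.13, limma adjusted p = 0.0348), and the call was lost under median-ratio scaling (-0.24, adjusted p = 0.302). It was lost too when any of ordinary-feed libraries 2 to 4 or high-fat libraries 1 and 2 was left out (adjusted p 0.0578 to 0.0966). Which of the genes in its interval it shares exons with is not given in the files.

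Neither tested feature of Hlf, the other PAR bZIP gene, was called. The intronic NONMMUT011495.2 (chromosome 11, 90356562 to 90357830) had 2.22, 1.32, 0.655 and 1.01 FPKM on high fat and 1.74, 3.78, 2.21 and 2.54 FPKM on ordinary feed (log2 change -0.65, SE 0.25, limma adjusted p = 0.0878). High-fat library 1 was within the ordinary-feed range, and without it the feature was called (-0.82, adjusted p = 0.0386). The 3′ UTR feature NONMMUT011493.2 (90336538 to 90338283) averaged 0.796 ± 0.398 FPKM on high fat and 1.31 ± 0.551 FPKM on ordinary feed (SD, n = 4 each; log2 change -0.36, SE 0.21, limma adjusted p = 0.242).

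Usp2 and Tsc22d3, outputs of the clock and of glucocorticoids, had the highest means of the 14 over all libraries, 3.90 and 4.16 FPKM. The Usp2 3′ UTR feature (NONMMUT068821.2, chromosome 9, 44093908 to 44095308), in an interval it shares with the gene model Gm49380, had 8.79, 2.20, 3.40 and 4.03 FPKM on high fat and 0.0414, 1.03, 1.43 and 4.96 FPKM on ordinary feed. Ordinary-feed library 4 again stood with the high-fat libraries, and the change of 1.13 (SE 0.53) was not called (limma adjusted p = 0.158). Intronic NONMMUT074093.2 of Tsc22d3 (chromosome X, 140587303 to 140589446) had 2.84, 1.29, 1.41 and 0.893 FPKM on high fat and 2.11, 6.40, 7.49 and 10.5 FPKM on ordinary feed. Ordinary-feed library 1 was within the high-fat range and the other 3 were above it. It fell (log2 change -1.45, SE 0.44, limma adjusted p = 0.0393), a call lost under both scalings (-1.26 and -1.29, adjusted p = 0.0709 in each). The call was lost as well when any of libraries 2 to 4 of either group was left out (adjusted p 0.0718 to 0.102). The Tsc22d3 3′ UTR transcript NONMMUT074090.2 missed the filter, with 0.253 to 0.526 FPKM on high fat and 0.360 to 0.505 on ordinary feed. With no filter its log2 change was -0.06 (limma adjusted p = 0.871), so the fall was seen in the intronic feature only.

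**Figure D2:**
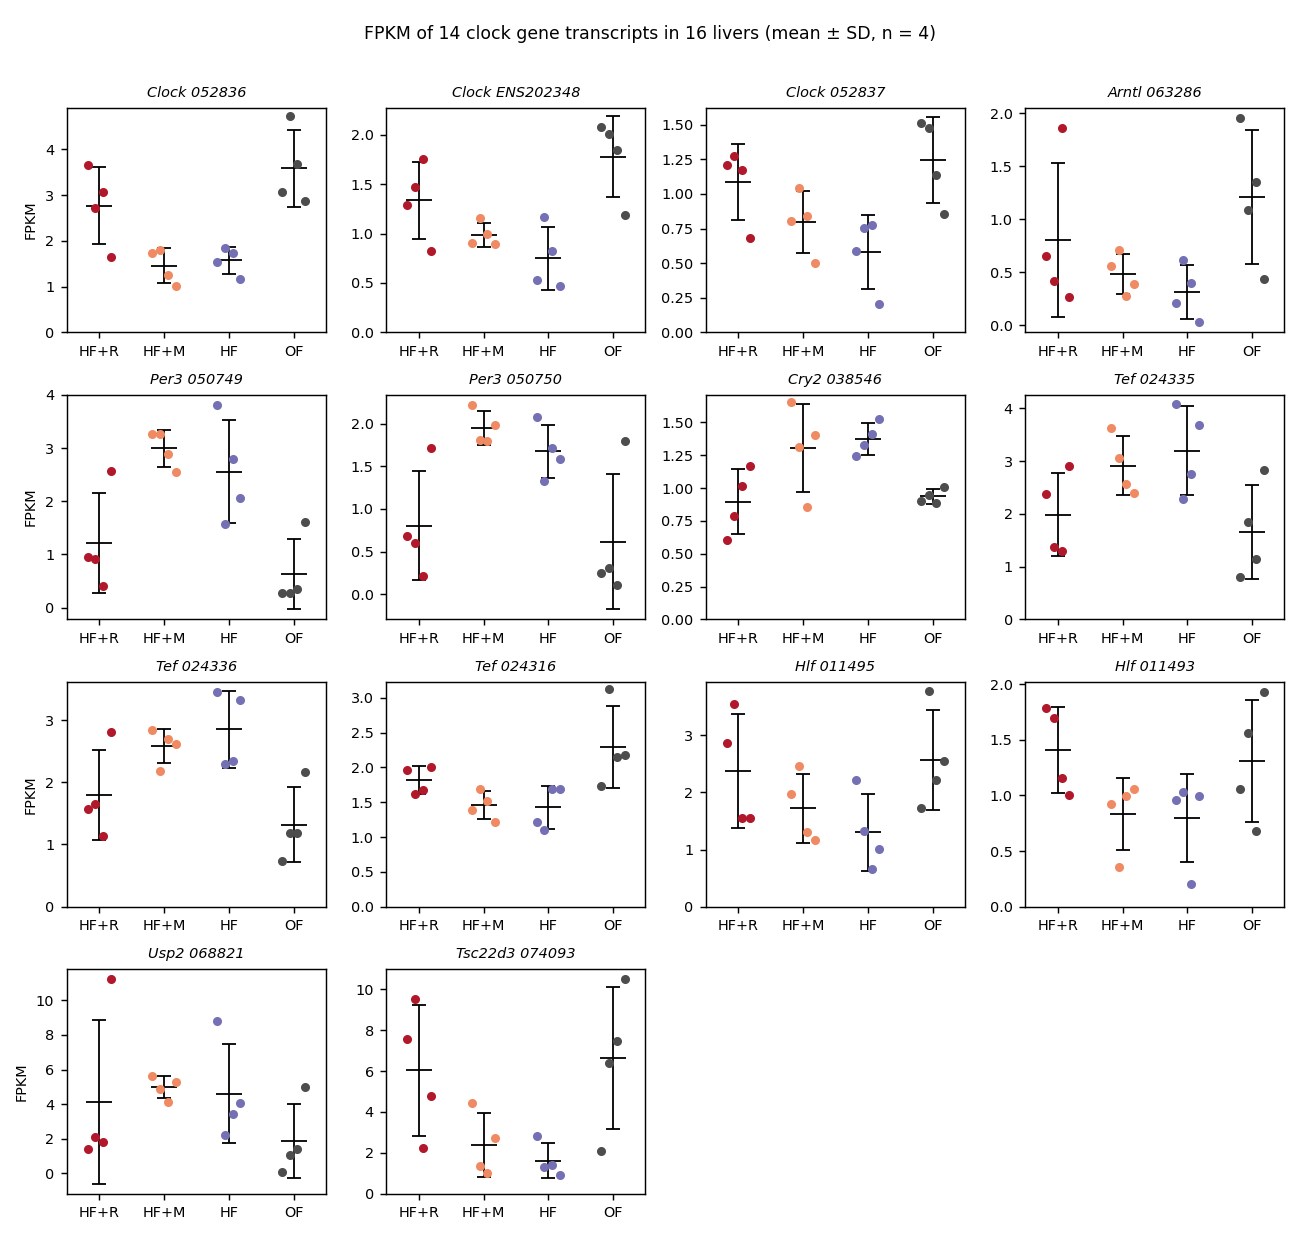
FPKM (y axis, linear, scale per panel) of the 14 tested features in the 16 livers, named by gene and the digits of the transcript ID; points are libraries 1 to 4 from left to right, dashes and bars the mean and SD (n = 4). HF+R is high fat with resveratrol, HF+M high fat with metformin, HF high fat and OF ordinary feed. At Per3 and Usp2 the fourth ordinary-feed point sits among the high-fat points.

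Resveratrol with high fat against high fat alone asks whether the drug changed the diet's levels, and it shares the high-fat libraries with the comparison above. None of the 14 features was called by limma, beside 0.0809% of all features, while 10 had an unadjusted p under 0.05 (5 higher, 5 lower), against 16.2% of all features (13.6% higher, 2.62% lower). The median log2 change was 0.31, beside 0.13 over all features, and 1 of the 14 showed no overlap between the groups, against 7.93%. The 3 Clock features had log2 changes of 0.53, 0.42 and 0.41 with resveratrol (SE 0.18, 0.15 and 0.15), with limma adjusted p of 0.197 to 0.226. NONMMUT052836.2 had 3.65, 2.72, 3.06 and 1.65 FPKM with resveratrol. Resveratrol libraries 1 to 3 were above the high-fat range, which reached 1.85 FPKM, and library 4 was inside it.

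The Per3 feature NONMMUT050749.2 had 0.949, 0.922, 0.40 and 2.57 FPKM with resveratrol, lower than the high-fat libraries in 3 and inside their range in library 4 (log2 change -0.73, SE 0.28, limma adjusted p = 0.233). NONMMUT050750.2 had 0.685, 0.605, 0.209 and 1.71 FPKM, the same pattern (-0.63, SE 0.26, adjusted p = 0.270). The Tef 3′ UTR feature had 1.58, 1.66, 1.13 and 2.81 FPKM (-0.48, SE 0.19, adjusted p = 0.250). Cry2 had 0.606, 0.790, 1.02 and 1.17 FPKM, all below the lowest high-fat value of 1.24 (-0.33, SE 0.11, adjusted p = 0.206). Tsc22d3 had 7.58, 9.52, 2.24 and 4.79 FPKM, 3 libraries above the high-fat maximum of 2.84 and library 3 below it (1.35, SE 0.44, adjusted p = 0.192). Usp2 had 1.38, 2.11, 1.82 and 11.2 FPKM, so that 1 library set its mean of 4.13 ± 4.73 FPKM (SD, n = 4; log2 change -0.36, SE 0.53, limma adjusted p = 0.745).

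With metformin, high-fat livers were compared with the same high-fat libraries. None of the 14 was called by limma and none had an unadjusted p under 0.05, where 0.027% and 7.47% of all features did. None had groups that did not overlap, beside 3.45% of all features. Estimates ran from -0.09 at Tef to 0.31 at Tsc22d3. For the Per3 feature NONMMUT050749.2 the 4 metformin libraries had 3.26, 3.27, 2.89 and 2.55 FPKM, within the high-fat range of 1.57 to 3.81 (log2 change 0.20, 95% interval -0.40 to 0.80). For Clock NONMMUT052836.2 they had 1.74, 1.81, 1.25 and 1.02 FPKM, against 1.17 to 1.85 on high fat (-0.07, 95% interval -0.45 to 0.30). These intervals leave room for changes of such size and do not show equal levels.

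Between the drugs, none of the 14 was called by limma when resveratrol was set against metformin, and 0.0% of all features were. At an unadjusted p under 0.05 there were 5, against 6.35%. These were Per3 NONMMUT050749.2 (-0.94, SE 0.28) and NONMMUT050750.2 (-0.77, SE 0.26), Clock NONMMUT052836.2 (0.60, SE 0.18), Tsc22d3 (1.04, SE 0.44) and Cry2 (-0.28, SE 0.11), each with a limma adjusted p of 0.765. The doses differ, at 100 and 200 mg/kg per day. The 4 resveratrol values of NONMMUT050750.2, 0.209 to 1.71 FPKM, were all below the 4 metformin values, 1.79 to 2.22 FPKM. It was the 1 feature of the 14 with no overlap between the drugs, where 4.76% of all features had none.

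Set against ordinary feed, the drug groups differed in their counts. With resveratrol none of the 14 was called by limma (0.283% of all features) and none had an unadjusted p under 0.05 (13.2%). No member's groups were apart, beside 9.93% of all features. Its estimates ran from -0.32 at Arntl to 0.77 at Usp2. With metformin 1 was called, Clock NONMMUT052836.2 (log2 change -0.90, SE 0.18, limma adjusted p = 0.0491), beside 0.297% of all features. That call was lost without any of the metformin libraries or ordinary-feed library 1, 2 or 3 (adjusted p 0.0541 to 0.143), and with log2(FPKM + 0.1) or a fit of these 2 groups alone (0.0624 and 0.0613). It was lost with no filter too. At an unadjusted p under 0.05 there were 9, against 20.1%, with Per3 NONMMUT050749.2 next (1.37, SE 0.28, limma adjusted p = 0.0545). In 5 of the 14 the metformin and ordinary-feed libraries did not overlap, against 13.4% of all features. The difference between these counts of the drug groups was not itself tested, and both comparisons share the ordinary-feed libraries.

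**Figure D3:**
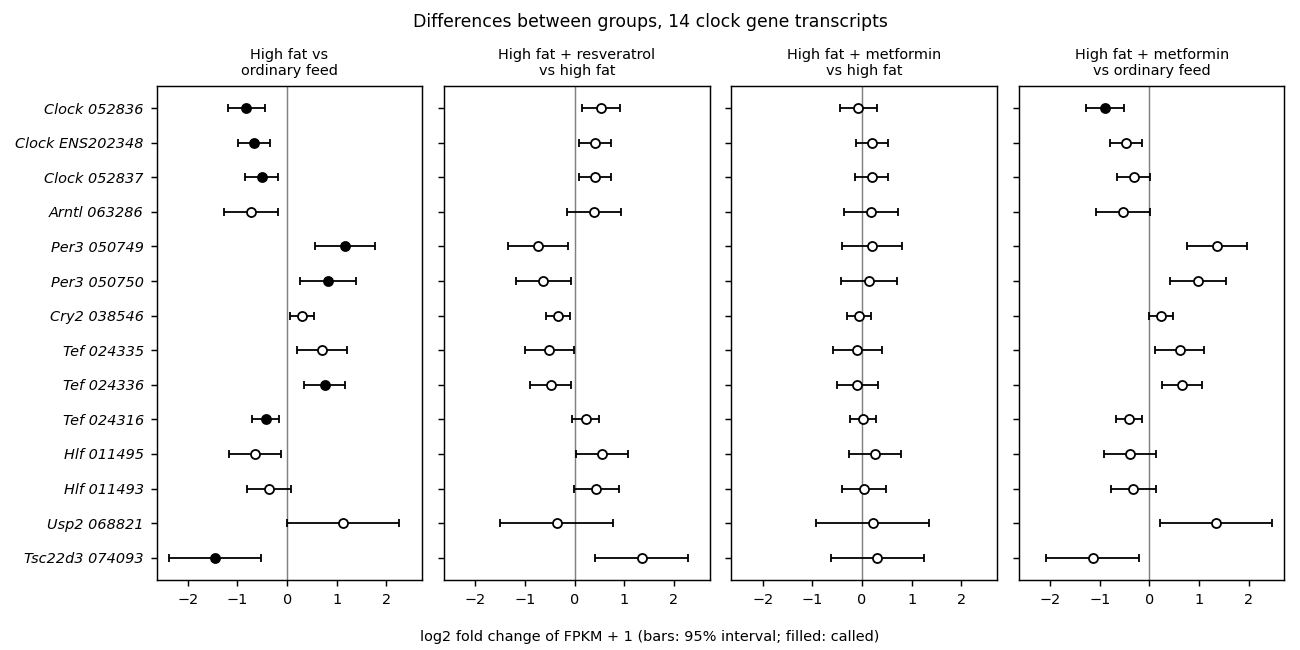
Log2 fold changes of FPKM + 1 (x axis) with 95% intervals for the 14 features in 4 comparisons, filled where the limma adjusted p is under 0.05. In high fat against ordinary feed 8 points are filled, in each drug against high fat none, and in metformin against ordinary feed 1.

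The 17 transcripts that were not tested had means of 0.0144 to 0.527 FPKM, and 13 of them never reached 1 FPKM in any library. Gm17597 (ENSMUSG00000097613.1, chromosome 15, 81800791 to 81802613), an antisense gene over the start of Tef, was singled out after its values were seen. It had 12, 4, 7 and 11 reads with metformin (0.457, 0.204, 0.272 and 0.444 FPKM), 4, 2, 1 and 4 reads on high fat, and was listed at 0 in the 4 ordinary-feed libraries and in 3 of the 4 resveratrol ones. It was called in metformin against ordinary feed when no filter was applied (limma adjusted p = 0.0331), the only member called there, beside 0.0140% of all 49988 features. All its values lay under 0.5 FPKM.

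Agreement between features of 1 gene was measured over the 16 libraries in 8 pairs, with permutation tests of 100000 resamples, whose smallest p is 1e-05. Pearson's r had a median of 0.837, and 6 of the 8 pairs, all positive, had an adjusted p under 0.05. The Per3 pair reached r = 0.962 (Spearman's rho 0.897, permutation p = 1e-05 for both, adjusted 2.67e-05; r without the 2 farthest libraries 0.951). In Clock the 3 pairs had r of 0.834 to 0.907 and rho of 0.859 to 0.918 (adjusted permutation p at most 9.6e-05; r 0.774 to 0.867 without the 2 farthest libraries). The Tef pair NONMMUT024335.2 and NONMMUT024336.2 had r = 0.917 and rho = 0.882 (adjusted permutation p 2.67e-05 and 4e-05; 0.858 without the 2 farthest). Hlf reached 0.578 (rho 0.474, adjusted permutation p = 0.0243 and 0.0763), and 0.324 without the 2 farthest libraries, so it rests on them. The long Tef transcript had r of -0.29 and -0.50 with the other Tef features (adjusted permutation p = 0.283 and 0.0546).

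Part of such an r is the difference between groups. After each group's mean was taken off, r was 0.206 to 0.921 and positive in all 8 pairs, with a Per3 pair of 0.921 and Clock pairs of 0.651 to 0.813. Livers of 1 group that were high in one Per3 or Clock feature were thus high in the gene's other one. Within-group r was not recomputed without single libraries. Features of a pair share their library and its depth, and only the 2 pairs with the long Tef transcript have overlapping intervals.

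Across genes, with the feature of highest mean standing for each, 18 of 28 pairs had an adjusted permutation p under 0.05, 10 positive and 8 negative. The permutations shuffled all libraries without regard to group, so differences between groups enter these p-values. Per3 went with Tef (r = 0.872, rho 0.871, adjusted permutation p = 0.00028 and 0.00056; 0.814 without the 2 farthest libraries) and with Usp2 (0.864, rho 0.847, 0.00028 and 0.00112; 0.812). It ran against Clock (-0.85, rho -0.76, 0.00077 and 0.00471; -0.81 without the 2 farthest) and Arntl (-0.79, rho -0.66, 0.00145 and 0.0164; -0.71). Tef likewise ran against Arntl (-0.81, rho -0.73, 0.00129 and 0.00694; -0.67). Clock and Arntl went together (0.708, rho 0.850, 0.00543 and 0.00056; 0.659).

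Among livers of the same group, with group means taken off, the sign of r differed from that over all libraries in 10 of the 28 pairs, and in 0 of the 18 that had an adjusted permutation p under 0.05. A kept sign is not a kept size. For Tef and Clock r went from -0.64 to -0.17 within groups, and for Per3 and Usp2 from 0.864 to 0.882. Between the 4 features of Clock and Arntl and the 5 of Per3, Usp2 and the shorter Tef transcripts, every r was negative, at -0.93 to -0.17. Within groups, r was 0.785 for Per3 and Tef, 0.882 for Per3 and Usp2, -0.70 for Per3 and Arntl, -0.49 for Per3 and Clock, and 0.503 for Clock and Arntl. Ordinary-feed library 4 and resveratrol library 4 departed most from their group means (0.479 and 0.469 on average over the 14 features). Both were high in Per3 and Usp2 and low in Clock and Arntl for their group. Within-group r was not recomputed without them, so how far it rests on these libraries was not tested. For Tsc22d3, r with Per3 was -0.40 over all libraries (rho -0.33, adjusted permutation p = 0.170 and 0.275; -0.45 without the 2 farthest) and 0.444 within groups. With Clock it was 0.639 (rho 0.532, 0.0184 and 0.0557; 0.566) and 0.124 within groups. Hlf went with Tsc22d3 (0.745, rho 0.732, adjusted permutation p = 0.00444 and 0.00694; 0.741 without the 2 farthest; 0.566 within groups) and with Clock (0.687, rho 0.676, 0.00896 and 0.0145; 0.630; 0.530 within groups).

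**Figure D4:**
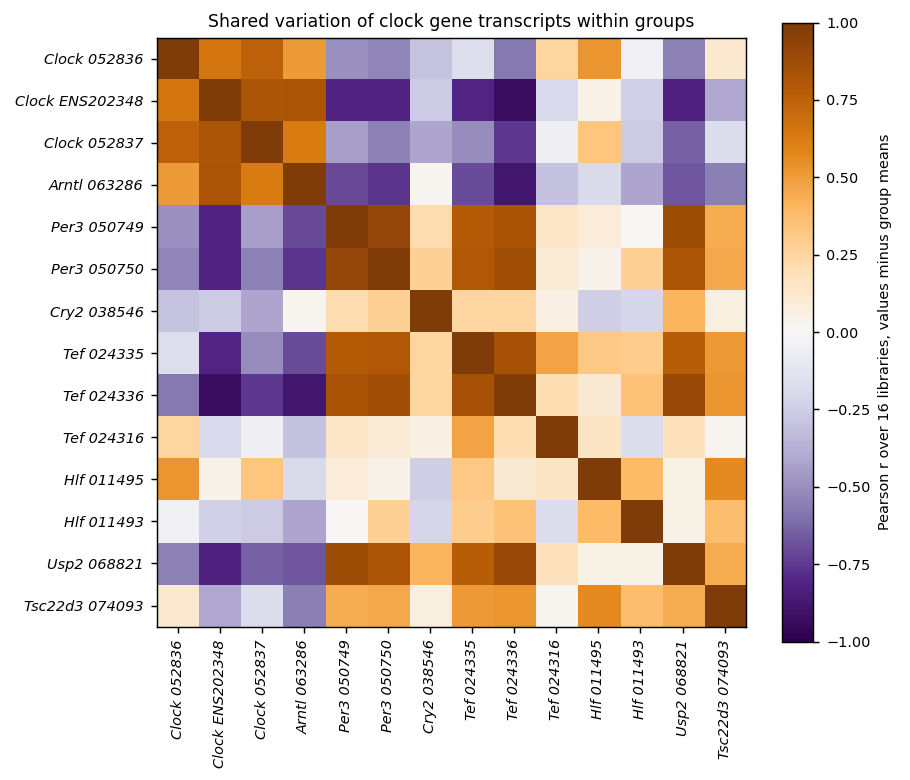
Pearson's r between the 14 features over 16 libraries after the group mean of log2(FPKM + 1) was taken off each value. The Clock and Arntl features form one positive block, the Per3, Tef and Usp2 features another, leaving out the long Tef transcript, and r between the blocks is negative.

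Among single livers, 2 departed most from their group over the 14 features. Ordinary-feed library 4 deviated by 0.479 on the log2 scale on average and resveratrol library 4 by 0.469, where the other 14 libraries deviated by 0.150 to 0.391. Ordinary-feed library 4 was the highest of its group in 8 features, among them both of Per3, the 3′ UTR one of Tef and that of Usp2, and the lowest in 4, the 3 of Clock and that of Arntl. Resveratrol library 4 was the highest of its group in 7 and the lowest in 6. It had 2.57 FPKM of Per3 NONMMUT050749.2, against 0.40 to 0.949 in the other resveratrol livers, and 0.265 FPKM of Arntl, against 0.422 to 1.86. Both livers thus had more Per3 and Usp2 and less Clock and Arntl signal than the others of their group. Their median ratios were 1.145, the highest of the 16, and 1.041. These are also the 2 libraries with a title prefix that no other library of their group carries. The meaning of the prefixes is not stated, so a difference between livers and a difference between prefixes cannot be told apart here. The part of library scaling in this was not tested.

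**Figure D5:**
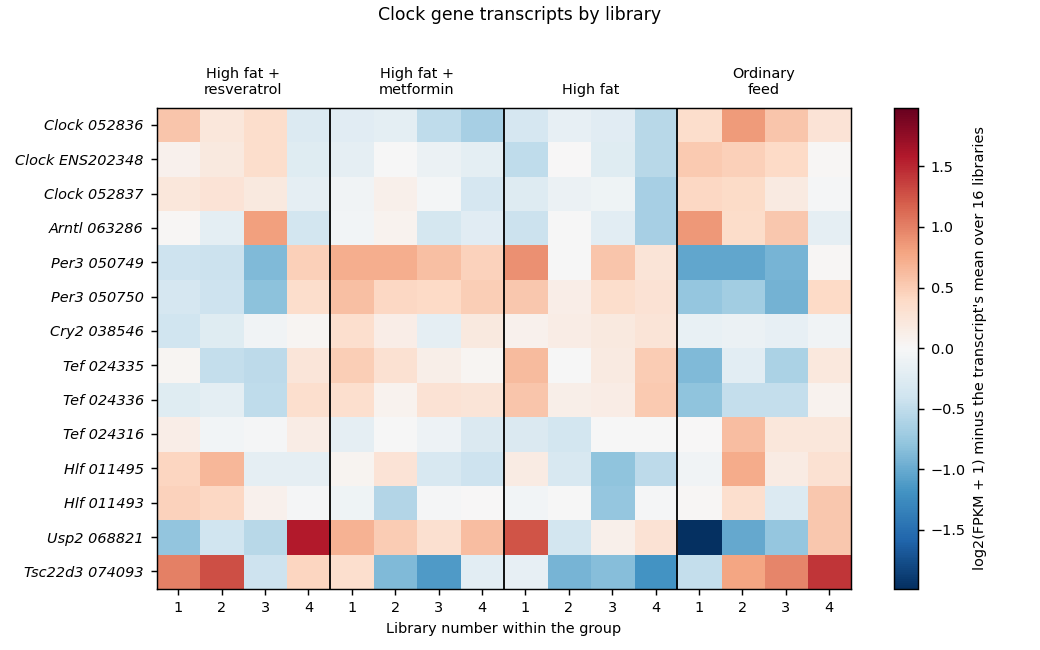
Log2(FPKM + 1) of each of the 14 features (rows) in each library (columns, by group) minus the feature's mean over the 16 libraries; red is above and blue below that mean. Ordinary-feed library 4 and resveratrol library 4 are redder at Per3, Usp2 and the 3′ UTR of Tef than the other libraries of their group.

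The tested features most like a called member over the 16 libraries were ranked by Pearson's r, given as a description. For Per3 and the Tef 3′ UTR these were mostly each other. NONMMUT050750.2 and NONMMUT024336.2 had r = 0.92, and NONMMUT050749.2 and NONMMUT024336.2 had 0.919. A feature in Stard4, which encodes a cholesterol carrier, had 0.894 with NONMMUT050749.2, and NONMMUT024335.2 of Tef had 0.886 with NONMMUT050750.2. The Clock features were most like intergenic ones 62.9 to 178.6 kb from Eipr1 on chromosome 12 (0.924 to 0.955). NONMMUT052837.2 was also like features in Chd2 (0.932) and Scaf8 (0.92). For Tsc22d3 they lay in Epas1, which encodes the hypoxia factor HIF2A (0.914), and in Cdip1 (0.911 and 0.910). The long Tef transcript was most like features in Lpp (0.866), Epb41 (0.862) and Cdip1 (0.846).

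A wider list of 52 gene symbols of the clock and of glucocorticoid response, 44 of them with a listed transcript, gave 51 tested features besides the 14. In high fat against ordinary feed 1 rose and 10 fell, by limma, with a median log2 change of -0.32, where 2.83% of all features rose and 11.8% fell. Under either scaling 1 rose and 4 fell. Of all 7413 features, 447 rose and 366 fell under median-ratio scaling, and 338 rose and 383 fell under quantile normalization. The shares of 2.83% and 11.8% also stand beside the unscaled counts of each group of genes that follows, and the scaled numbers beside the scaled counts. No tested feature lay at Dbp, Nr1d1, Nr1d2, Per1 or Cry1. The 1 tested feature at Per2 (NONMMUT075974.1) had a log2 change of -0.38, opposite in sign to Per3 and Cry2, and was not called. Its change was -0.23 under median-ratio scaling and -0.25 under quantile normalization, not called in either. Among kinases and ubiquitin ligases that mark clock proteins, 6 of 20 features fell and none rose. They were 3 in Gsk3b (-0.67, -0.57 and -0.49), 2 in Csnk1d (-0.59 and -0.39) and 1 in Fbxw11 (-0.37), with limma adjusted p of 0.00437 to 0.0441. Under median-ratio scaling 2 of the 20 kept a call, both in Gsk3b, which encodes glycogen synthase kinase 3 beta (NONMMUT026538.2, -0.49, adjusted p = 0.0141, and NONMMUT026540.2, -0.42, adjusted p = 0.00563). These 2 were called under every alternative tried.

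Of rhythmic outputs apart from Usp2 and Tsc22d3, 1 of 9 features rose and 3 fell. Gm38357 in Noct, whose protein removes phosphate from NADP cofactors, averaged 3.10 ± 1.07 FPKM on high fat and 11.6 ± 8.13 FPKM on ordinary feed (SD, n = 4 each; log2 change -1.48, SE 0.46, limma adjusted p = 0.0451), and was not called under median-ratio scaling (-1.24, adjusted p = 0.102) or without libraries 2 to 4 of either group. In Insig2, which holds back sterol synthesis, NONMMUT002394.2 averaged 85.9 ± 36.2 FPKM on high fat and 193 ± 32.8 FPKM on ordinary feed (-1.28, SE 0.34, limma adjusted p = 0.0257; lost without ordinary-feed library 2 or 3), and a second, assembled transcript fell by 0.58 (limma adjusted p = 0.0360; 0.103 under median-ratio scaling). A multi-part feature at Alas1, the first enzyme of heme synthesis, rose by 0.71 (SE 0.19, limma adjusted p = 0.0277), a call lost without high-fat library 1 or 3 or ordinary-feed library 1, 2 or 3. Of 14 features at glucocorticoid targets 1 fell, Gm22146 in Fkbp5, whose protein binds the glucocorticoid receptor complex (-1.02, SE 0.26, limma adjusted p = 0.0209; lost without library 2 of either group, high-fat library 4 or ordinary-feed library 3). None of the 51 was called with either drug against high fat, and an unadjusted p under 0.05 was found for 10 with resveratrol, all higher, and for 2 with metformin, 1 higher and 1 lower, where 16.2% of all features had one with resveratrol (13.6% higher) and 7.47% with metformin.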

How the data were processed

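The values are FPKM that the authors computed per listed transcript and deposited in a separate file for each library. The submitters' processing notes name Cufflinks 2.1.1, Bowtie 0.12.2 and GRCm38, with annotation and strand handling not given in the sources used here. FPKM times length came out as whole reads, within 0.05 of a read, in at least 99.998% of values, which gave reads and library totals. Ensembl transcripts were summed per gene (49988 features). Features with at least 1 FPKM in at least 4 libraries (7413) were tested with limma 3.58.1 (R 4.3.3, trend) on log2(FPKM + 1), in 1 fit of 16 libraries, with Benjamini-Hochberg adjustment over the 7413 in each of 6 comparisons. The code was tested on simulated data. Promoters came from RefSeq (GRCm38.p6). Every tested member was named, the called features of the wider list, and the 3 features most like each called member, except 1 feature that is not reported here. Members and lists were chosen with earlier results of these data known. Libraries are numbered within a group in accession order, which pairs none. Whether replicates came from separate litters or cages is not stated.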

Additional observations from a re-analysis of the deposited data

Results flagged for a closer look

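In 5 of 56 groups of 4 libraries, 1 library's gap to the nearest other, as a share of the group's range, was above Dixon's 95% critical value for 4 samples. Chance passes that value in about 1 of 20 groups, and features of 1 gene are not independent. Ordinary-feed library 4 had 1.61 FPKM of Per3 NONMMUT050749.2, against 0.266 to 0.355 in the other ordinary-feed livers. It had 1.80 FPKM of Per3 NONMMUT050750.2, against 0.104 to 0.311. Resveratrol library 4 had 11.2 FPKM of Usp2 NONMMUT068821.2, against 1.38 to 2.11 in the other resveratrol livers, and 0.680 FPKM of Clock NONMMUT052837.2, against 1.17 to 1.28. High-fat library 3 had 0.20 FPKM of Hlf NONMMUT011493.2, against 0.960 to 1.03 in the other high-fat livers.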

How the results depend on the processing

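Of the counts of called members in high fat against ordinary feed (8), none remained with no filter (49988 features tested), 3 with the 2 groups fitted alone and 3 when high-fat library 4 was dropped under median-ratio scaling. Of all features, 0.548%, 6.06% and 7.16% were called in these settings, beside 14.6% in the main fit. Leaving out single libraries gave 2 to 8, with 2, 3 and 5 without ordinary-feed library 2, 3 and 1, and 5 and 4 without high-fat library 2 and 4. The share of all features called ran from 7.27% to 15.9% over these omissions. It was 7.27%, 7.77% and 10.1% without ordinary-feed library 2, 3 and 1, and 9.74% and 8.16% without high-fat library 2 and 4. In metformin against ordinary feed (1), the count was 0 with log2(FPKM + 0.1) and in the fit of 2 groups, 2 with median-ratio scaling, quantile normalization or merged loci, and 0 to 3 without single libraries. The shares of all features were 0.189% with log2(FPKM + 0.1) and 0.162% in the fit of 2 groups. They were 0.809% with either scaling, 1.08% with merged loci and 0.0270% to 0.661% without single libraries. Clock NONMMUT052836.2 lost its call in this comparison with no filter as well, where 0.0140% of all features were called. The wider list with members (19 of 65 tested) gave 2 with no filter, 12 with either scaling, 7 in the fit of 2 groups, 6 when high-fat library 4 was dropped under median-ratio scaling, and 4 to 17 without single libraries. The shares of all features beside these are those given above for high fat against ordinary feed, with 11.0% under median-ratio scaling and 9.73% under quantile normalization. The other comparisons gave 0 throughout. Single features were recomputed for the 14 members in high fat against ordinary feed and for Clock NONMMUT052836.2 in metformin against ordinary feed; none turned in sign, and of these 235 values 62 lost and 7 gained a call. The cause was not tested, and single estimates of the other comparisons were not recomputed. Merged loci gave no value for the Tef features or Hlf NONMMUT011493.2, whose loci missed the filter. No paired analysis was possible because the labels do not say that any number in a title pairs samples across groups. With no filter, 4 of the 17 untested transcripts had an unadjusted limma p under 0.05 in high fat against ordinary feed. The share of all 49988 features at that p is not given here, so whether this count departs from it was not tested. Of the 17, 1 was called in any comparison, Gm17597 in metformin against ordinary feed, where 0.0140% of all features were called.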
